A study of Danio rerio with 6 samples.

Results

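The Wnt genes of zebrafish tumours are described here: secreted ligands, the proteins that export them, their receptors, secreted inhibitors, cytoplasmic transducers and nuclear factors. Members were chosen by name alone. They are the probe sets whose single gene symbol in the platform annotation begins with wnt and a digit, fzd, sfrp, dkk, lrp5, lrp6, axin, dvl, tcf7, lef1, porcn, ror1 or ror2, or is wls. This gave 42 of 15502 tested probe sets, which stand for 34 of 8793 genes. A gene read by several probe sets is represented below by the one with the highest mean over the 6 arrays unless another is named. The 34 genes are 10 ligands, 2 secretion genes, 9 receptors, 5 secreted inhibitors, 4 cytoplasmic genes and 4 nuclear factors. Another 2 probe sets match through 1 of several symbols and were not analysed here, and none was analysed under the names lrp5, lrp6, ror1 or tcf7.

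Expression was measured on Affymetrix zebrafish arrays, 1 per tumour. The 3 small round blue cell tumours (SRBCT) carry the genotype label Tg(HSP:EWS-FLI1); p53M214K/M214K: a transposon with the HSP70 heat shock promoter in front of the human EWS-FLI1 fusion gene was injected into 1-cell embryos, and the tumours arose from somatic insertions, so the fish are mosaic. The 3 malignant peripheral nerve sheath tumours (MPNST) come from p53M214K/M214K fish without the transgene. Both groups thus share the homozygous p53 mutation, and transgene, injection and tumour type differ together. No ages are given, and whole tumour tissue was used, in which fewer cells of a type and less RNA per cell cannot be told apart. Values are log2 expression, differences are SRBCT minus MPNST on that scale, and errors given as ± are SD over n = 3 arrays. Called means a Benjamini-Hochberg adjusted p under 0.05 in limma's moderated test over all 15502 probe sets. The number of arrays limits the precision of every value.

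Wnt proteins are lipid-modified signals. They are made in the endoplasmic reticulum, carried to the cell surface by Wntless, and bind Frizzled receptors with the co-receptors Lrp5 and Lrp6, or Ror kinases. Through Dishevelled, the receptors disable a complex built on Axin, so that beta-catenin accumulates and works with TCF and LEF factors on target genes, while other branches steer cell polarity and movement. In the neural crest, from which Schwann cells descend, Wnt signals act in induction and in the choice between fates.

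Arrays and tissues have limits that touch the values below. SRBCT 3 stood apart: it correlated at 0.892 and 0.864 with SRBCT 1 and SRBCT 2, which correlated at 0.939 with each other. With the MPNST arrays it correlated at 0.875 to 0.916. A fit without it therefore stands beside many of the values, and the plot of differences shows both fits for all 34 Wnt genes. That fit rests on 2 SRBCT arrays, and the array to leave out was chosen from these same values. Calls over all probe sets rose from 140 to 1140 without it. Its adjusted p-values thus describe SRBCT 1 and SRBCT 2 against MPNST and are no separate evidence on the tumour types. The glial and neural crest regulator sox10 was at 10.34 to 11.01 in SRBCT and 10.45 to 10.75 in MPNST. Of 12 oocyte and germ cell markers 10 were lower on all 3 SRBCT arrays, beside 10% of all genes. Their median lay at 4.18 to 4.89 in SRBCT and 7.93 to 10.21 in MPNST. Of 10 leukocyte markers 6 were lower on all 3 SRBCT arrays, with medians of 6.52 to 7.70 in SRBCT and 7.27 to 8.25 in MPNST. Of 9 epithelium markers 2 were lower and 2 higher there. The median of 13 liver markers was 4.44 to 4.89 in SRBCT, and 10.16 on MPNST 1 against 3.89 and 4.32 on the other MPNST arrays. The median of 14 intestine and pancreas markers was 8.88 on SRBCT 3 against 4.03 and 5.12 on the other SRBCT arrays, and 4.25 to 5.20 in MPNST. The median of 8 radial glia and brain markers was 9.94 and 10.22 on SRBCT 1 and 2 and 6.86 on SRBCT 3, against 3.94 to 6.59 in MPNST. Of these 8, 3 were higher on all 3 SRBCT arrays, beside 12.3% of all genes. gfap, another of the 8, was dim and overlapped, at 3.20 to 4.41 in SRBCT and 3.17 to 3.45 in MPNST. The part of these tissues in the Wnt values was not tested.

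Among the 34 Wnt genes 1 rose in SRBCT, wls, and 33 did not pass. That is 2.94% of them, beside 0.876% of all genes. Over probe sets the count was 1 of 42, beside 0.903% of all probe sets called in either direction, 0.0903% called higher and 0.813% called lower. An unadjusted p under 0.05 was reached by 3 of the 34 genes (8.82%, beside 15.7% of all genes) and by 5 of the 42 probe sets (11.9%, beside 15.2% of all probe sets). Without SRBCT 3, 4 of the 34 genes (11.8%) were called, beside 7.16% of all genes: wls rose, beside 3.22% of all genes called higher, and fzd7b, dvl2 and dkk3b fell, beside 3.95% called lower. Over probe sets 5 of 42 were then called (11.9%, beside 7.35%), 1 higher (beside 3.67%) and 4 lower (beside 3.68%). The 3 SRBCT values lay beyond the 3 MPNST values for 7 genes (20.6%, beside 22.3% of all genes), higher for 6 (beside 12.3%) and lower for 1 (beside 10%). For probe sets this held for 8 of 42 (19.0%, beside 22.6%), 7 higher (beside 13.2%) and 1 lower (beside 9.34%). For 2 of the 34 genes, wnt8b and fzd9b, the difference changed sign without SRBCT 3. The median difference of the 34 genes was 0.12, beside 0.07 over all genes. The share of Wnt genes with separate groups was thus close to that of all genes.

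**Figure D1:**
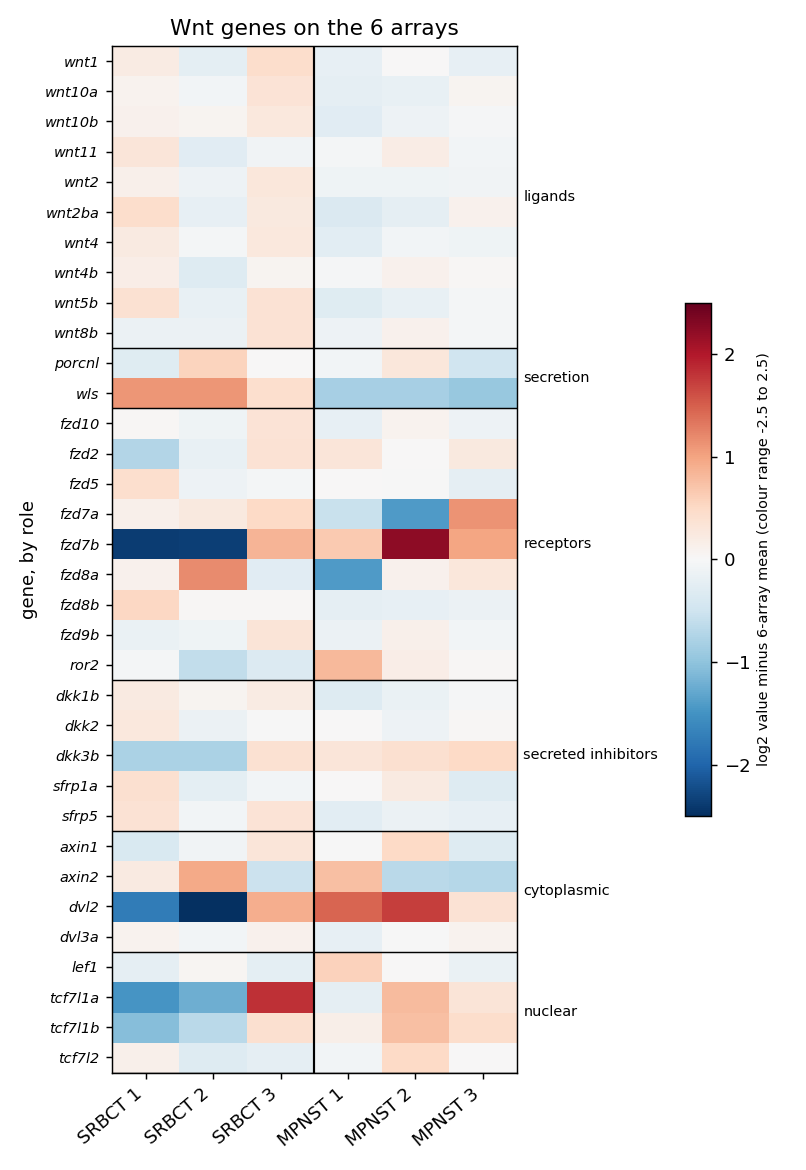
Log2 values of the 34 Wnt genes (rows, by role) on the 3 SRBCT and 3 MPNST arrays (columns), each minus the gene's mean over the 6 arrays. wls is raised on all 3 SRBCT arrays, and fzd7b, dvl2, tcf7l1a and tcf7l1b are low on SRBCT 1 and SRBCT 2 but not on SRBCT 3.

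The called gene, wls, was 1 of the 2 secretion genes. wls encodes Wntless, the carrier that takes Wnt proteins from the Golgi to the cell surface. Its main probe set was at 9.83, 9.82 and 9.14 in SRBCT 1, 2 and 3, against 7.89, 7.90 and 7.77 in MPNST 1, 2 and 3. All 3 SRBCT values lay above all 3 MPNST values, and the lowest of them was that of SRBCT 3. The means were 9.60 ± 0.40 in SRBCT and 7.85 ± 0.07 in MPNST, a difference of 1.74 (SE 0.25, 95% interval 1.15 to 2.34), or 3.35-fold, with an adjusted p of 0.043.

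The other wls probe sets were less clear. One of them read 7.57, 8.87 and 8.62 in SRBCT and 6.65, 7.42 and 7.46 in MPNST. Its groups did not overlap either, but its difference of 1.18 (SE 0.42) did not pass, with an adjusted p of 0.288. The remaining one was dim, at 2.61 to 3.57 in SRBCT and 2.55 to 2.81 in MPNST, with a difference of 0.30 (adjusted p 0.645).

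The wls call depended on the arrays and on the model more than its size did. It held without SRBCT 3 (difference 1.97, adjusted p 0.00603) and was lost in each of the other 5 fits that left out 1 array, where the difference was 1.63 to 1.77 and the adjusted p 0.103 to 0.186. It was also lost with cyclic loess (0.0568), with a trended and robust variance (0.0576) and when the 3 probe sets were averaged (difference 1.07, adjusted p 0.109). porcnl, whose relative Porcupine adds the lipid to Wnt proteins, was at 5.81, 6.67 and 6.12 in SRBCT, against 6.04, 6.38 and 5.61 in MPNST. These ranges overlap, and the difference of 0.19 (SE 0.31, 95% interval -0.57 to 0.95) had an adjusted p of 0.782.

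No ligand gene passed. The 10 measured ones were wnt1, wnt2, wnt2ba, wnt4, wnt4b, wnt5b, wnt8b, wnt10a, wnt10b and wnt11, and their differences ran from -0.07 to 0.36. Of these 8 were above 0, beside 5252 of the 7753 probe sets whose mean level is at or below the array-wide median of 5.57. The median of the ligands was 0.25, beside 0.14 over those 7753 and 0.09 over all probe sets. All 10 ligand genes lie below the level of 5.57, with means over the 6 arrays between 2.84 and 5.03. The deposited values do not say which probe sets detected a transcript, and RMA draws dim values together.

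Single ligands differed by little. wnt5b, a ligand of the polarity branch needed for extension of the embryonic axis, was at 5.41, 4.84 and 5.39 in SRBCT, against 4.74, 4.84 and 4.98 in MPNST. SRBCT 1 and SRBCT 3 lay above the MPNST arrays and SRBCT 2 within them, and the difference of 0.36 (SE 0.23) had an adjusted p of 0.483. wnt10b, which patterns the midbrain and hindbrain together with wnt1, read 4.99, 4.94 and 5.13 in SRBCT and 4.59, 4.75 and 4.85 in MPNST. The groups did not overlap, but the difference of 0.29 (SE 0.18) did not pass either (adjusted p 0.472).

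Its sister gene wnt10a read 3.89, 3.72 and 4.13 in SRBCT, against 3.57, 3.61 and 3.86 in MPNST, with overlap (difference 0.23, SE 0.20, adjusted p 0.589).

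wnt4 was the other ligand gene with separate groups, at 4.31, 4.02 and 4.34 in SRBCT and 3.82, 4.01 and 3.97 in MPNST. SRBCT 2 exceeded MPNST 2 by only 0.01 there, and the difference was 0.29 (SE 0.19, adjusted p 0.489). wnt2ba read 4.30, 3.64 and 4.09 in SRBCT, against 3.50, 3.63 and 3.95 in MPNST, with overlap (difference 0.32, SE 0.25, adjusted p 0.558). For the forebrain ligand gene wnt8b the difference was 0.05 (95% interval -0.48 to 0.58), or -0.12 without SRBCT 3, and for wnt11, which guides cell movement in gastrulation, -0.04 (-0.58 to 0.49). wnt4b differed by -0.07 (-0.56 to 0.42). The intervals of the 10 ligand genes reached at most 0.92 upward and -0.58 downward.

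The ligands were set beside control probe sets on each array. Relative to each gene's 6-array mean, the median ligand lay at 0.19, -0.17 and 0.27 on SRBCT 1, 2 and 3, and at -0.22, -0.09 and -0.05 on MPNST 1, 2 and 3. The 44 control probe sets for bacterial and synthetic sequences, hybridization spike-ins left aside, lay at 0.15, -0.11 and 0.34 in SRBCT and at -0.21, -0.05 and -0.07 in MPNST. The order of the arrays was the same in SRBCT and another in MPNST. The median difference of these controls was 0.24, beside 0.25 for the ligands. Whether RNA of the control sequences was added to the samples is not known here, so they may carry signal of their own. The 18 probe sets for hybridization spike-ins lay at 1.34, -0.64 and 0.69 in SRBCT and at -0.57, -0.20 and -0.53 in MPNST. The part of this shift in the ligand values was not tested. The median of the ligands was 0.16 after a second quantile normalization and 0.13 after cyclic loess, with 7 of 10 above 0 in both.

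**Figure D2:**
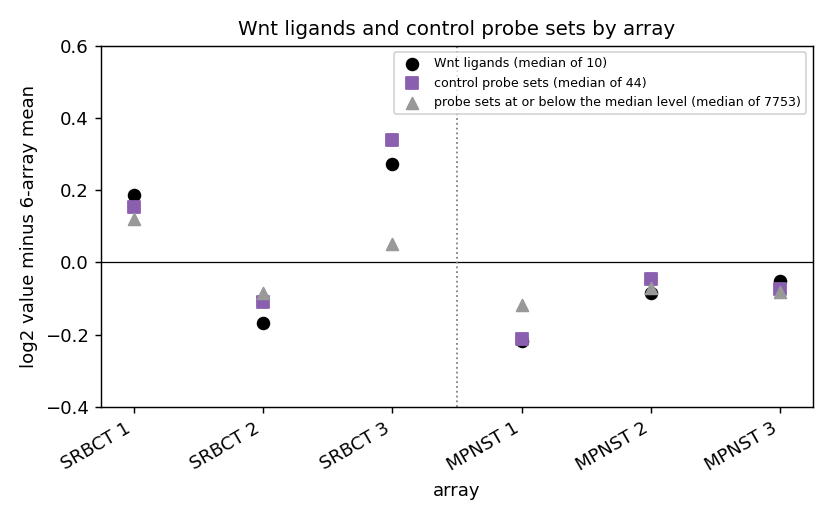
Median log2 value relative to the 6-array mean, on each array, for the 10 Wnt ligand genes (circles), the 44 control probe sets for bacterial and synthetic sequences (squares) and the 7753 probe sets at or below the median level (triangles). Ligands and controls are highest on SRBCT 3, followed by SRBCT 1, and lowest on MPNST 1.

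Among the receptor genes, fzd7b fell in the fit without SRBCT 3. fzd7b, one of the zebrafish copies of the Frizzled 7 gene, was at 6.24, 6.26 and 9.46 in SRBCT 1, 2 and 3, against 9.27, 10.85 and 9.61 in MPNST 1, 2 and 3. SRBCT 1 and SRBCT 2 lay far below every MPNST array, whereas SRBCT 3 lay among them. Over 6 arrays the difference was -2.59 (SE 0.96, 95% interval -4.91 to -0.27, adjusted p 0.298), and without SRBCT 3 it was -3.66, a 12.6-fold lower level (adjusted p 0.0149). A second fzd7b probe set was also lower there: it read 5.76, 5.53 and 8.50 in SRBCT and 8.17, 10 and 8.77 in MPNST, with a difference of -3.33 without SRBCT 3 (adjusted p 0.026).

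The sister gene fzd7a did not pass in either fit. It was at 5.51, 5.63 and 5.88 in SRBCT, against 4.83, 3.96 and 6.50 in MPNST, so the SRBCT values lay inside the wide MPNST range. Its difference was 0.58 (SE 0.63, adjusted p 0.669), and 0.47 without SRBCT 3. Probe sets differ in brightness, so fzd7b minus fzd7a can be compared only between arrays; it was 0.73, 0.63 and 3.58 in SRBCT and 4.44, 6.89 and 3.11 in MPNST. The change of -3.17 between groups gave p = 0.2 in a two-sided exact permutation test, where 3 arrays against 3 can give no less than 0.1.

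ror2, a receptor tyrosine kinase of the polarity branch, was the single Wnt gene with all SRBCT values below all MPNST values. It read 3.57, 3.0 and 3.28 in SRBCT and 4.42, 3.77 and 3.64 in MPNST. The difference of -0.66 (SE 0.28, 95% interval -1.35 to 0.03) did not pass (adjusted p 0.342), and without SRBCT 3 it was also -0.66 (adjusted p 0.34). The values are dim and the gap between the nearest arrays was small.

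Among the other Frizzled genes none passed in either fit. fzd8a was at 6.81, 7.88 and 6.42 in SRBCT, against 5.28, 6.80 and 6.98 in MPNST, with SRBCT 2 the highest and MPNST 1 the lowest (difference 0.68, SE 0.58, adjusted p 0.586). A second fzd8a probe set differed by 0.71. Its sister gene fzd8b was dim, at 3.35, 2.87 and 2.88 in SRBCT and 2.62, 2.64 and 2.69 in MPNST, without overlap (difference 0.38, SE 0.20, adjusted p 0.424). fzd2 read 4.54, 5.08 and 5.64 in SRBCT, against 5.57, 5.28 and 5.52 in MPNST, where SRBCT 1 and SRBCT 2 were lowest (difference -0.37, SE 0.31, adjusted p 0.581, and -0.65 without SRBCT 3, adjusted p 0.218). fzd5, fzd9b and fzd10 differed by 0.16, 0.05 and 0.17, with overlapping groups, and without SRBCT 3 by 0.23, -0.11 and 0.04. The median of the 9 receptors was 0.16, and 0.04 without SRBCT 3.

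Secreted inhibitors differed among themselves. dkk3b, a divergent member of the Dickkopf family, was at 4.87, 4.88 and 6.05 in SRBCT, against 5.98, 6.07 and 6.17 in MPNST. SRBCT 1 and SRBCT 2 lay below every MPNST array and SRBCT 3 among them, as for fzd7b. The difference was -0.81 (SE 0.36, adjusted p 0.351) over 6 arrays and -1.20 without SRBCT 3, where it passed with a 2.29-fold lower level (adjusted p 0.0238). dkk1b, which blocks the Lrp5 and Lrp6 co-receptors, read 4.07, 3.92 and 4.06 in SRBCT and 3.53, 3.69 and 3.83 in MPNST. It was higher on all 3 SRBCT arrays, but the difference of 0.33 (SE 0.18) did not pass (adjusted p 0.425).

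sfrp5, one of the secreted Frizzled-related proteins that bind Wnt ligands, was at 6.27, 5.84 and 6.24 in SRBCT, against 5.63, 5.75 and 5.69 in MPNST. The groups did not overlap, and the difference of 0.43 (SE 0.20, 95% interval -0.05 to 0.90) had an adjusted p of 0.371. A second sfrp5 probe set overlapped between groups, with a difference of 0.24. sfrp1a and dkk2 were dim and differed by 0.06 each, with adjusted p of 0.928 and 0.887. dkk2 read 3.14, 2.73 and 2.86 in SRBCT and 2.88, 2.76 and 2.90 in MPNST.

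**Figure D3:**
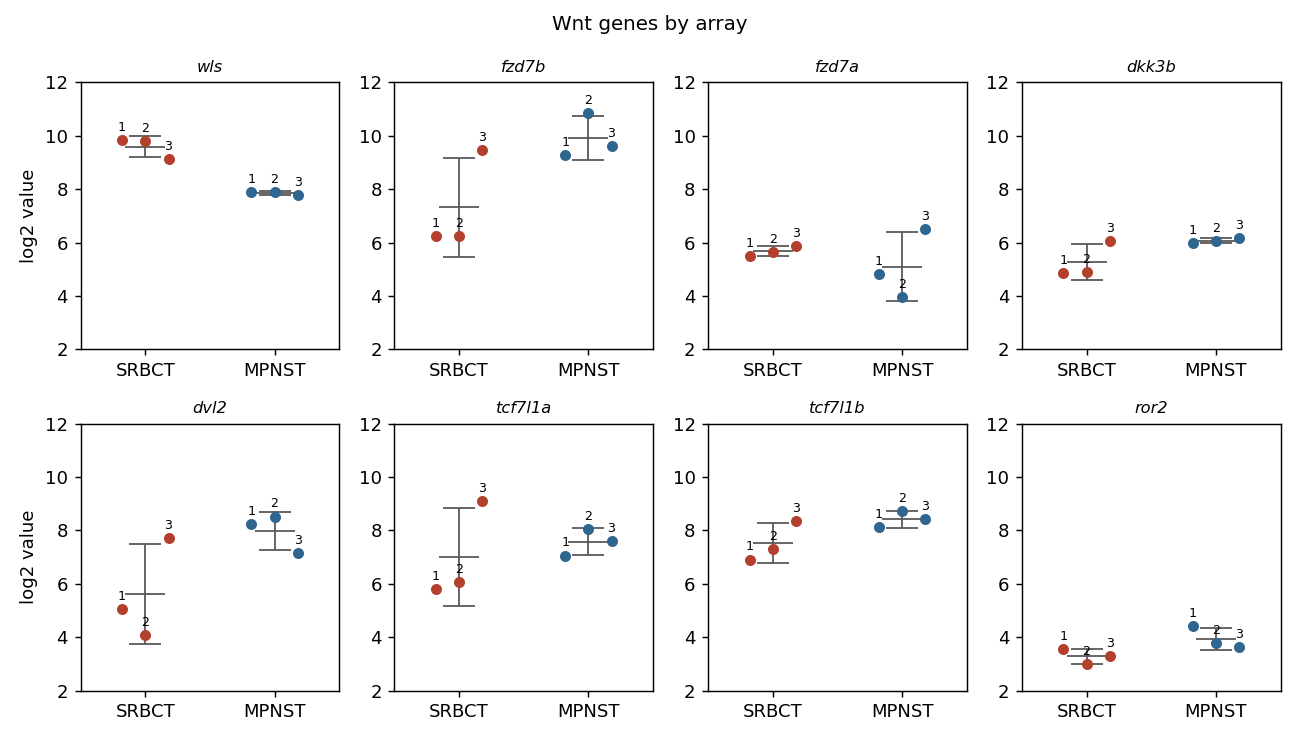
Log2 values of 8 Wnt genes on each array (points, numbered by replicate), SRBCT left and MPNST right in each panel, with mean and SD (bars, n = 3). SRBCT 3 lies with or above the MPNST arrays for fzd7b, dkk3b, dvl2, tcf7l1a and tcf7l1b, while wls is at 9.14 or more on all 3 SRBCT arrays and at 7.90 or less on the MPNST arrays.

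Of the cytoplasmic genes, dvl2 fell in the fit without SRBCT 3. It encodes a Dishevelled protein, which passes the signal from Frizzled receptors inward. It was at 5.04, 4.08 and 7.71 in SRBCT 1, 2 and 3, against 8.25, 8.52 and 7.16 in MPNST 1, 2 and 3. SRBCT 3 exceeded MPNST 3, and the other SRBCT arrays lay well below. The difference was -2.37 (SE 0.95, 95% interval -4.67 to -0.07, adjusted p 0.32) over 6 arrays and -3.42 without SRBCT 3, a 10.7-fold lower level (adjusted p 0.02). The related dvl3a did not pass, at 7.44, 7.27 and 7.46 in SRBCT and 7.14, 7.33 and 7.44 in MPNST. Its difference was 0.09 with a narrow interval, -0.35 to 0.53, and an adjusted p of 0.831.

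Both Axin genes overlapped between groups. axin1, the scaffold of the complex that marks beta-catenin for destruction, was at 7.45, 7.74 and 8.13 in SRBCT, against 7.82, 8.34 and 7.52 in MPNST (difference -0.12, SE 0.30, adjusted p 0.859). Its second probe set differed by 0.04. axin2, a related scaffold that is itself a widely used target gene of beta-catenin, read 5.30, 6.02 and 4.54 in SRBCT and 5.83, 4.41 and 4.36 in MPNST. MPNST 1 and SRBCT 2 were high there and the rest lower, with a difference of 0.42 (SE 0.54, 95% interval -0.89 to 1.73, adjusted p 0.721), and 0.79 without SRBCT 3 (adjusted p 0.468). The interval thus holds changes of either sign.

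All 4 nuclear factors had differences below 0, beside 3879 of all 8793 genes, and none passed. Their median was -0.44, beside 0.07 over all genes. The direction held for the 4 under each of the other scalings, with medians of -0.49 to -0.41, but tcf7l1a was at 0.01 when SRBCT 1 was left out. tcf7l1a, a TCF factor that in zebrafish represses Wnt targets during forebrain formation, was at 5.81, 6.07 and 9.11 in SRBCT, against 7.06, 8.07 and 7.61 in MPNST. SRBCT 3 was the highest of all 6 arrays and SRBCT 1 and 2 the lowest. The difference was -0.58 (SE 0.90, adjusted p 0.765), and -1.64 without SRBCT 3, just short of the threshold (adjusted p 0.051).

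Its sister gene tcf7l1b had the same order of groups, at 6.91, 7.30 and 8.37 in SRBCT and 8.11, 8.73 and 8.41 in MPNST. It differed by -0.89 (SE 0.41, adjusted p 0.371), and by -1.31 without SRBCT 3 (adjusted p 0.0509), so neither sister passed in either fit. tcf7l2 read 5.15, 4.70 and 4.80 in SRBCT, against 4.96, 5.53 and 5.03 in MPNST (difference -0.29, SE 0.24, adjusted p 0.58). lef1, itself a target of the pathway in many tissues, was dim at 2.89, 3.17 and 2.88 in SRBCT and 3.70, 3.14 and 2.96 in MPNST (difference -0.29, SE 0.25, adjusted p 0.597). Both overlapped between groups.

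**Figure D4:**
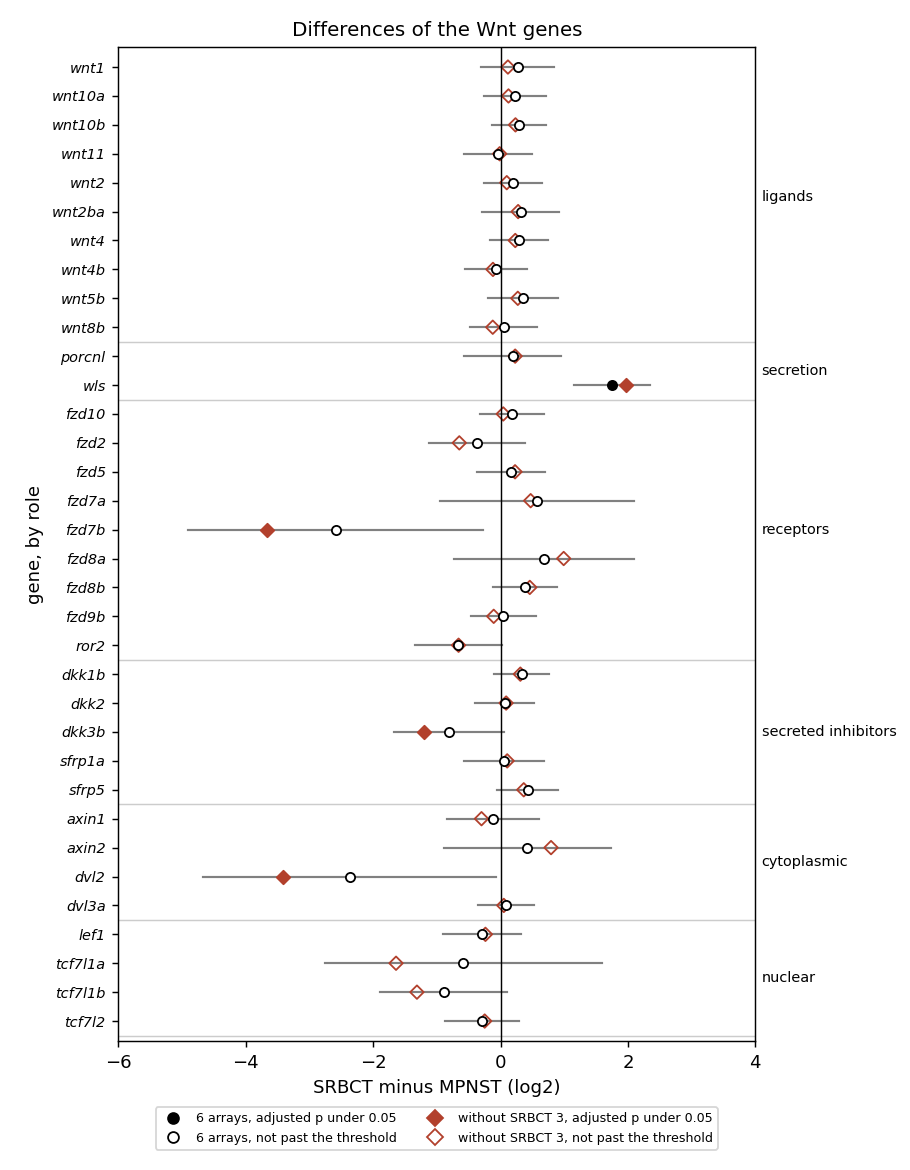
Difference SRBCT minus MPNST (log2) of the 34 Wnt genes by role, over 6 arrays (circles with 95% intervals) and without SRBCT 3 (diamonds); filled symbols passed the threshold. wls is filled in both fits, and fzd7b, dvl2 and dkk3b without SRBCT 3.

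SRBCT 3 also differed from the other SRBCT arrays in the medians of several tissue marker lists. On this array intestine and pancreas markers were high and radial glia and brain markers low relative to SRBCT 1 and 2, as were neuron markers (median of 11 markers 4.63 against 6.79 and 7.12). Schwann cell and neural crest markers (7 genes) had a median of 8.67 on SRBCT 3, 6.60 and 4.95 on the other SRBCT arrays and 9.37 to 10 in MPNST. These 7 genes did not move as 1. On all 3 SRBCT arrays 1 was higher and 2 were lower, beside 12.3% and 10% of all genes. The median of their differences was 0.02. pmp22b, a peripheral myelin gene among them, was at 4.12, 4.95 and 7.54 in SRBCT and 10.02, 10 and 9.37 in MPNST. cldnk, also among them, went the other way, at 10.84, 8.84 and 8.67 in SRBCT and 5.17, 5.78 and 5.74 in MPNST. The median of the 12 oocyte and germ cell markers was 4.89, 4.18 and 4.75 in SRBCT and 10.21, 8.65 and 7.93 in MPNST. The part of any of these in the values of fzd7b, dvl2, dkk3b, tcf7l1a and tcf7l1b was not tested.

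Further pathway genes, from a list of those that the naming rule does not match, gave no call over 6 arrays. Of 43 measured genes 6 had an unadjusted p under 0.05 (14.0%, beside 15.7% of all genes), and the median difference was 0.12. Without SRBCT 3, 5 of the 43 were called (11.6%, beside 7.16% of all genes). Of these 1 rose, tle3b (beside 3.22% of all genes called higher), and 4 fell (beside 3.95% called lower). The 4 were prickle1b and prickle2b, celsr1a and tfpia. prickle1b, prickle2b and celsr1a encode components of the planar cell polarity branch, and tfpia a tissue factor pathway inhibitor. tfpia was at 4.96, 4.99 and 10.17 in SRBCT, against 7.23, 8.26 and 8.62 in MPNST, so SRBCT 3 was the highest of the 6 arrays and the other SRBCT arrays the lowest. Its difference was -1.33 (SE 1.44, adjusted p 0.669), and -3.06 without SRBCT 3 (adjusted p 0.0177).

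prickle2b was at 5.56, 5.31 and 6.78 in SRBCT, against 7.80, 8.08 and 7.58 in MPNST. All 3 SRBCT arrays lay below the MPNST arrays, SRBCT 3 nearest to them, and the difference was -1.94 (SE 0.41, adjusted p 0.131), or -2.38 without SRBCT 3 (adjusted p 0.00665). celsr1a, an atypical cadherin gene, read 3.28, 3.29 and 5.51 in SRBCT and 6.79, 6.39 and 5.62 in MPNST. Here too SRBCT 3 came close to the MPNST arrays, with a difference of -2.24 (SE 0.68, adjusted p 0.235), and -2.98 without it (adjusted p 0.0124). prickle1b was at 3.29, 3.61 and 5.98 in SRBCT, against 6.57, 6.06 and 5.02 in MPNST, and differed by -1.59 (SE 0.79, adjusted p 0.4), or -2.43 without SRBCT 3 (adjusted p 0.0448). Its groups overlapped through SRBCT 3.

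Among the polarity genes chosen after their values were seen, vangl2 and prickle1a had differences above 0. vangl2, encoding the polarity protein that Prickle binds, read 5.46, 4.64 and 4.64 in SRBCT and 3.86, 4.18 and 4.19 in MPNST. It was higher on all 3 SRBCT arrays, by 0.84 (SE 0.29), and did not pass in either fit (adjusted p 0.28, and 0.145 without SRBCT 3). prickle1a read 5.02, 4.57 and 6.27 in SRBCT and 5.02, 5.18 and 5.37 in MPNST, with SRBCT 3 the highest array. Its difference was 0.10 (adjusted p 0.929) over 6 arrays and -0.40 without SRBCT 3 (adjusted p 0.426). ryk, a Wnt receptor, was at 7.29, 7.16 and 9.01 in SRBCT and 8.62, 8.53 and 7.81 in MPNST, so SRBCT 1 and 2 lay below every MPNST array and SRBCT 3 above them. Its difference was -0.50 (adjusted p 0.671), and -1.09 without SRBCT 3, a 2.14-fold lower level that did not pass (adjusted p 0.109).

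The co-repressor genes of the list had positive differences, as did 26 of its 43 genes and 4914 of all 8793 genes. Of these co-repressor genes, tle2a (difference 0.52, adjusted p 0.481) and tle3a (0.16, adjusted p 0.702) overlapped between groups. tle3b, a Groucho protein that TCF factors recruit, was at 8.92, 8.13 and 7.22 in SRBCT, against 6.57, 6.99 and 6.36 in MPNST. The groups did not overlap, and the difference of 1.45 (SE 0.45, adjusted p 0.249) became 1.89 without SRBCT 3, where it passed (adjusted p 0.0325). Another tle3b probe set differed by 0.99 without overlap and passed without SRBCT 3 (difference 1.39, adjusted p 0.0299). The dimmest tle3b probe set overlapped between groups, with a difference of 0.25 (adjusted p 0.62), and did not pass without SRBCT 3 (adjusted p 0.626). ctbp1 read 8.45, 9.22 and 8.32 in SRBCT and 7.09, 7.37 and 7.62 in MPNST, a difference of 1.30 (SE 0.30, adjusted p 0.154). ctbp2a read 6.39, 6.29 and 6.78 in SRBCT and 5.03, 5.81 and 4.70 in MPNST, a difference of 1.31 (SE 0.33, adjusted p 0.179). Both CtBP genes were higher on all 3 SRBCT arrays without passing in either fit.

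The RNA of the beta-catenin genes did not pass, and the protein was not measured. The main ctnnb1 probe set was at 10.04, 9.86 and 10.70 in SRBCT, against 9.72, 10.54 and 10.26 in MPNST, a difference of 0.03 (95% interval -0.76 to 0.81), or -0.22 without SRBCT 3 (adjusted p 0.721). A second ctnnb1 probe set differed by 0.38 (adjusted p 0.693), with overlap. ctnnb2, the second zebrafish beta-catenin gene, was at 9.31, 10.20 and 10.03 in SRBCT and 10.15, 10.16 and 10.18 in MPNST (difference -0.32, SE 0.27, adjusted p 0.589). Both genes overlapped between groups.

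Known target genes of the pathway gave no call over 6 arrays. Of 35 measured genes 8 had an unadjusted p under 0.05 (22.9%, beside 15.7% of all genes), with a median difference of 0.15. For 9 of the 35 the groups did not overlap (25.7%, beside 22.3% of all genes). Without SRBCT 3, 3 of the 35 were called (8.57%, beside 7.16% of all genes). cd44a and mycb rose (beside 3.22% of all genes called higher) and id2a fell (beside 3.95% called lower). Many of these genes answer to other signals too.

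cd44a, encoding a hyaluronan receptor, was at 5.48, 5.39 and 5.04 in SRBCT, against 4.36, 3.89 and 4.42 in MPNST, and higher on all 3 SRBCT arrays (difference 1.08, SE 0.24, adjusted p 0.134). Without SRBCT 3 the difference was 1.21 (adjusted p 0.0467). mycb, a zebrafish copy of MYC, read 9.58, 10 and 7.59 in SRBCT and 6.64, 5.94 and 7.38 in MPNST, with SRBCT 3 just above MPNST 3 (difference 2.40, adjusted p 0.224). Without SRBCT 3 its difference was 3.14 (adjusted p 0.018). The sister gene myca was at 8.68, 7.17 and 9.0 in SRBCT, against 6.05, 5.62 and 6.97 in MPNST, without overlap (difference 2.07, SE 0.58, adjusted p 0.214), and did not pass without SRBCT 3 either (1.71, adjusted p 0.174). id2a, an inhibitor of helix-loop-helix factors, was at 8.82, 8.26 and 9.46 in SRBCT, against 10.01, 9.79 and 9.74 in MPNST. It was lower on all 3 SRBCT arrays (difference -1.0, SE 0.33, adjusted p 0.269), and by -1.31 without SRBCT 3 (adjusted p 0.0418). The targets most used as readouts of the pathway, axin2 and lef1, are members and did not pass in either fit.

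**Figure D5:**
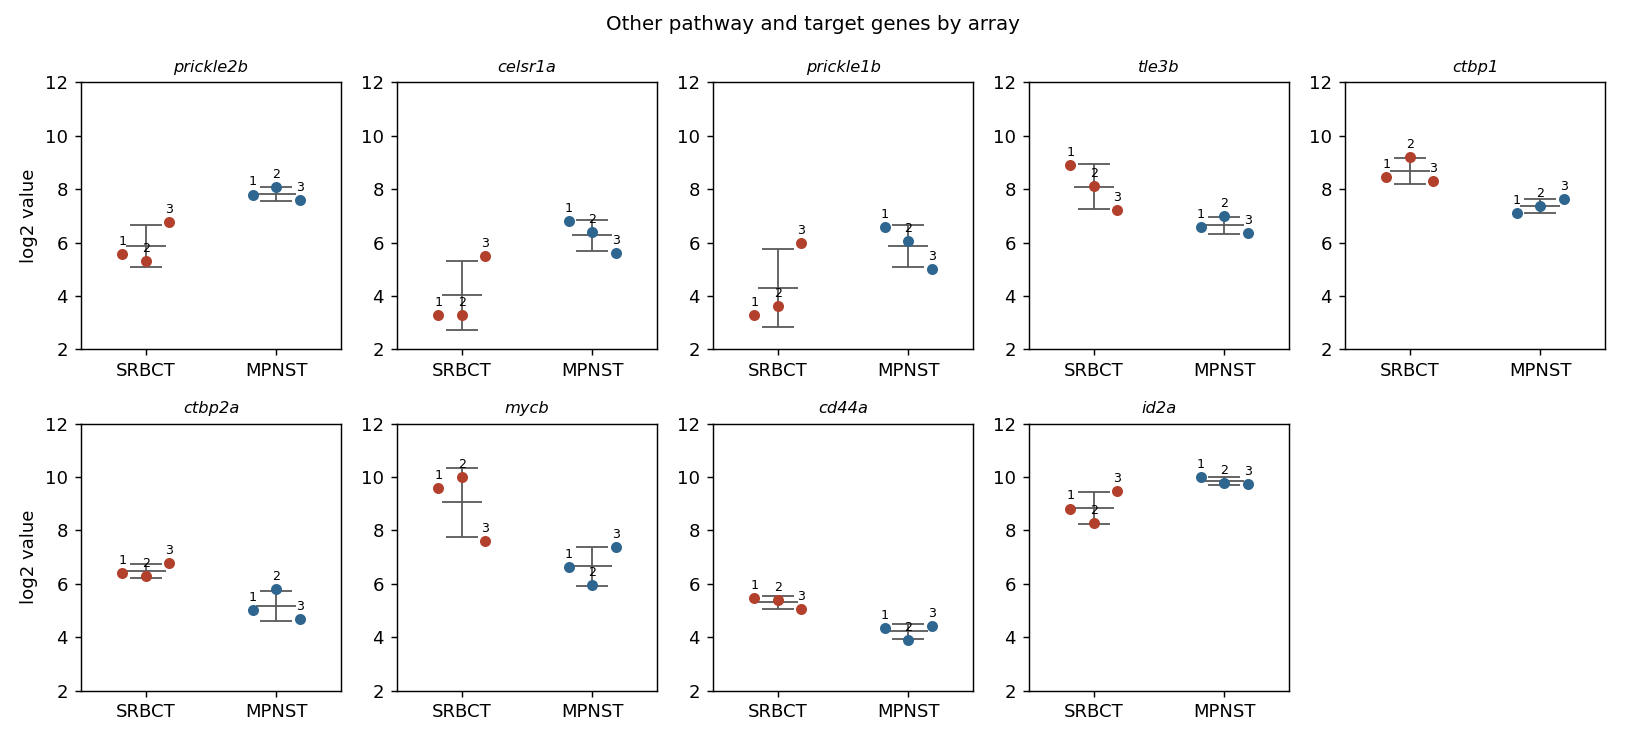
Log2 values of 6 further pathway genes and 3 target genes on each array (points, numbered by replicate), SRBCT left and MPNST right, with mean and SD (bars, n = 3). prickle2b, celsr1a and id2a lie lower and tle3b, ctbp1, ctbp2a, mycb and cd44a higher on all 3 SRBCT arrays, whereas prickle1b overlaps.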

How the data were processed

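Total RNA of 6 tumours, 3 SRBCT and 3 MPNST, was labelled and hybridized to zebrafish Affymetrix arrays, per the labels' protocols. The deposited values are log2 expression values, 1 per probe set and array. Per the submitters' processing notes they were made with RMA, the affy package and R 2.2.0. That the log is to base 2 follows from RMA and fits values of 1.86 to 13.88. RMA understates differences of dim probe sets. Filters are not given in the sources used here.

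Of 15617 probe sets 115 controls were left out. Symbols came from the platform annotation and were checked by Entrez identifier against the RefSeq table of GRCz12tu, where all 42 members matched and 0 changed name. The comparison of SRBCT with MPNST was fitted over all probe sets by lmFit and eBayes without covariates (limma version 3.58.1, R version 4.3.3). On simulated data of this size, 14.7%, 63.6% and 93.9% of log2 changes of 1, 2 and 4 were recovered. The simulated noise was independent between probe sets, so no array deviated over many genes as SRBCT 3 did. The changed probe sets were picked at random from all levels, whereas 23 of the 34 Wnt genes lie at or below 5.57. The rates are thus no estimate for the Wnt genes.

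The members, lists and tests were chosen with earlier results of these data known, so lists have counts and medians but no p-value. Values by array are given for members called in any fit over all or 5 arrays, the 4 smallest p and the 2 brightest of each role, and for sister genes; of the other lists, called genes, those called without 1 array and the 3 smallest p, to which ctnnb1, ctnnb2, vangl2, ryk and prickle1a were added after their values were seen. The labels call replicates biological. Same-numbered arrays come from different fish, and their deviations from the group means correlated at 0.06, 0.07 and -0.05. Alternatives were 3 scalings, a filter on dim probe sets, 2 variance models, a replicate block, leaving out each array, a minimum log2 difference of 1, and averaged probe sets.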

Additional observations from a re-analysis of the deposited data

How the results depend on the processing

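Across alternatives wls kept a positive difference, between 1.07 and 1.97, and passed the threshold in 5 of 14 (adjusted p 0.00603 to 0.186). The count of called Wnt probe sets and genes was 0 with cyclic loess (wls difference 1.73), with a trended and robust variance (wls difference 1.74) and with the replicate number as a block (replicate block, wls adjusted p 0.11), and the gene count was 0 with averaged probe sets. Leaving out 1 array gave 0 to 5 called probe sets, 0 to 4 called Wnt genes, 0 to 5 other pathway genes, 0 to 3 target genes and 26 (without SRBCT 1) to 1140 (without SRBCT 3) probe sets in all; each other highest count was also that without SRBCT 3. The 140 calls over 6 arrays became 278 with array weights, where 1 other pathway gene was called, and 88 with the replicate block. The median of the secretion genes was 0.63 with averaged probe sets; without dim probe sets that of the receptors was -0.95 and that of the inhibitors -0.19, over fewer genes. No ligand was left there, so it gave no ligand value. Sign changes were found for 4 of the 23 Wnt genes recomputed under these alternatives: axin1 (-0.307 to 0.103 when 1 array was left out), dkk2 (-0.043 with a second quantile normalization, -0.053 with cyclic loess, and -0.052 to 0.153 when 1 array was left out), porcnl (-0.013 with array weights, and -0.045 to 0.385 when 1 array was left out) and tcf7l1a (-1.64 to 0.01 when 1 array was left out); the cause was not tested. Of 310 alternative values of these genes 289 kept direction and side of the threshold. The medians of the ligands and of the nuclear factors kept their direction, at 0.12 to 0.33 and -0.78 to -0.29. With 3 arrays a group the precision is low, and dim genes such as the ligands have compressed differences.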

Other observations

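Differences of zebrafish sister genes were set side by side; a contrast between sisters can be compared only between arrays, since probe sets differ in brightness. tle3a, dim at means of 4.77 in SRBCT and 4.61 in MPNST, differed by 0.16, and the main tle3b probe set by 1.45. tle3b minus tle3a was 4.04, 3.56 and 2.35 in SRBCT and 2.13, 2.23 and 1.72 in MPNST, higher on all 3 SRBCT arrays, with p = 0.1 in a two-sided exact permutation test, which cannot go lower at this number of arrays. fbxw11a and fbxw11b, subunits of the ligase that marks beta-catenin for destruction, differed by 0.43 and -0.45. fbxw11b minus fbxw11a was 0.85, 1.55 and 1.80 in SRBCT and 2.3, 2.1 and 2.43 in MPNST, again without overlap (exact permutation p 0.1). csnk1db minus csnk1da was 0.86, 0.52 and 0.83 in SRBCT and 1.23, 0.94 and 0.97 in MPNST, also without overlap (exact permutation p 0.1). This contrast depends on the csnk1da probe set. The main one differed by 0.17 and csnk1db by -0.14, but a second, dimmer csnk1da probe set differed by -0.43. That one read 5.93, 7.16 and 4.96 in SRBCT and 5.99, 6.81 and 6.55 in MPNST. No other pair reached an exact permutation p of 0.1 with its main probe sets. prickle1a and prickle1b differed by 0.10 and -1.59, but that contrast overlapped between groups (exact permutation p 0.2). myca and mycb shared their direction (2.07 and 2.40), yet SRBCT 3 was the highest SRBCT array for myca and the lowest for mycb. In all 11 pairs were compared, and none of these p-values can pass an adjustment over them.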
